A study of Homo sapiens with 8 samples.

Results

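The TNF ligand and TNF receptor superfamilies are secreted and membrane proteins through which cells pass signals for survival, death and inflammation. Members were taken from the table of nascent RNA counts as the protein-coding genes whose symbol is TNFSF or TNFRSF followed by digits and at most 1 letter, which gave 32 of the 27945 genes, 11 ligands and 21 receptors. Superfamily proteins that go by other symbols, such as TNF itself and FAS, fall outside this definition and are given with the signalling genes.

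Ligands of the superfamily assemble as trimers and cluster their receptors at the cell surface. Receptors with a cytoplasmic death domain recruit FADD and caspases or the kinase RIPK1, whereas the other signalling receptors bind TRAF adaptors, and both routes can release NF-kappaB from its inhibitors. Decoy receptors bind ligand without passing on a full signal. In fibroblasts that enter senescence, a lasting arrest of proliferation, NF-kappaB drives much of the secretion of cytokines.

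Nascent RNA was profiled by fastGRO-seq, in which nuclei extend RNA polymerases already engaged on genes and the new RNA is purified and sequenced, so a count measures transcription over a gene body and not the amount of mature mRNA. The cells were IMR90, diploid lung fibroblasts of human origin that the study describes as primary, with an inducible fusion of the estrogen receptor and oncogenic H-RAS. There were 4 groups of 2 libraries. The first carried the labels control and wild type, with no shRNA named. The other groups were made senescent by 4-hydroxytamoxifen (100 nM in the methods), which activates the fusion, and carried shControl, shMETTL3 or shMETTL14. The methods of the study name day 6 for a harvest to examine senescence markers. They give no harvest day for the fastGRO-seq libraries. METTL3 is the catalytic subunit and METTL14 its partner in the complex that writes N6-methyladenosine on RNA. Because shControl occurs in senescent cells alone, senescence and the presence of an shRNA vector cannot be told apart in the comparison with control cells.

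Sequencing depth was 18494186 and 18781376 counts for the control libraries, 20306299 and 19976761 for shControl, 15688334 and 14897360 for shMETTL3 and 17230672 and 18074200 for shMETTL14. Ribosomal RNA genes took 86.2% to 92.5% of a library, which left from 1513930 to 2048475 counts per library for all other genes. Superfamily members together took 1956 and 2022 counts in the control, 4664 and 4470 in the shControl, 4205 and 4728 in the shMETTL3 and 3429 and 3315 in the shMETTL14 libraries. Replicates differed by more than counting noise in every group, with a chi-square per degree of freedom of 1.74 in control, 1.78 in shControl, 8.0 in shMETTL3 and 3.64 in shMETTL14 cells.

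The targeted genes and markers of the cell state were read as checks of the labels. METTL3 had 80 and 78 counts in control, 77 and 47 in shControl, 16 and 19 in shMETTL3 and 73 and 56 in shMETTL14 libraries, and was lower with shMETTL3 than with shControl (log2 fold change -2.04 ± 0.31 (SE), edgeR adjusted p = 1.8e-05). METTL14 had 60 and 55, 24 and 28, 41 and 48, and 18 and 14 counts in the same order. Both shMETTL14 libraries were the lowest for METTL14, but the difference from shControl was not past the threshold (-0.86 ± 0.34, edgeR adjusted p = 0.076). An shRNA acts on the mRNA, so nascent counts are no direct measure of knockdown. The methods of the study list a single shRNA against each of these genes. Loss of the target and other effects of that shRNA therefore cannot be told apart.

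Of 9 senescence markers, all of which could be tested, 5 were higher and 2 were lower in senescent shControl than in control cells, against 13.3% of all genes in each direction. The 5 were CXCL8, IL6, CDKN2B, CDKN1A and HRAS, and the 2 were MKI67 and LMNB1, named after their values were seen. CXCL8 was the most abundant, and the summed counts of the list were 1295 and 1256 in control, 6069 and 5717 in shControl, 2213 and 2293 in shMETTL3 and 4009 and 3357 in shMETTL14 libraries. Of the 9, 5 were lower and 1 was higher than with shControl under each knockdown, against 11.2% and 12.3% of all genes with shMETTL3 and 12% and 9.15% with shMETTL14. With shMETTL3 the 5 were CXCL8, IL6, MKI67, LMNB1 and HRAS and the 1 was CDKN2B, and with shMETTL14 they were CXCL8, IL6, MKI67, LMNB1 and CCNA2 and the 1 was CDKN1A, named after their values were seen. Scaling by library size alone ended the calls of HRAS in senescence (0.31, edgeR adjusted p = 0.14) and with shMETTL3 (-0.09, edgeR adjusted p = 0.69) and that of IL6 with shMETTL14 (-0.53, edgeR adjusted p = 0.057). Under that scaling 2 markers were higher and 4 lower with shMETTL14, against 24.6% and 5.52% of all genes. With shMETTL14, 3 markers were lower without the first shControl library, where IL6 and CCNA2 lost their calls, and 3 without the second, where LMNB1 and CCNA2 did. Without the first shMETTL14 library the call of CCNA2 was lost, without the second that of LMNB1, and DESeq2 gave CCNA2 no adjusted p. All 11 fibroblast markers had counts, led by COL1A1. Their sums were 29306 and 27937 in control, 10560 and 12950 in shControl, 14689 and 13312 in shMETTL3 and 8716 and 9359 in shMETTL14 libraries, and 8 of the 11 were lower and 1, VIM, named after its value was seen, was higher in senescent shControl than in control cells. The call of VIM was lost with library size alone (-0.05), which gave 10 lower and 0 higher against 39% and 5.85% of all genes, with library size counted without ribosomal RNA (0.34, edgeR adjusted p = 0.051), and without any 1 of the control and shControl libraries. With shMETTL14 8 of the 11 were lower than with shControl and 0 higher, against 12% and 9.15% of all genes, with a median of -1.07 (0 higher also by DESeq2 and at an unadjusted p below 0.05), while with library size alone 5 were lower and 1 higher, against 5.52% and 24.6%. With shMETTL3 2 were lower, DCN and THY1, and 1 was higher, COL5A1, named after their values were seen, against 11.2% and 12.3% of all genes, with a median of 0.02. Scaled by library size alone, 1 was lower and 6 higher, against 2.75% and 41.2%, and the call of THY1 was lost (-0.24). That of COL5A1 was lost without the first (0.48) or second (0.60) shControl or the first shMETTL3 library (0.30).

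Most markers of other cell types had few counts, apart from TEK and CD68. Of 10 leukocyte markers, 5 had 0 counts in every library, CD3E, CD3D, MS4A1 and CD2 among them, and the list summed to 18 and 23, 64 and 49, 47 and 40, and 54 and 46 counts in the order control, shControl, shMETTL3, shMETTL14, most of it CD68, which was higher in senescent shControl than in control cells (2.05 ± 0.33) and lower with shMETTL3 than with shControl (-0.84 ± 0.30, edgeR adjusted p = 0.040). The second call of CD68 was lost with DESeq2 (adjusted p = 0.18), with library size alone (-0.23), with only the groups compared (edgeR adjusted p = 0.065), and without the first shControl (-0.58), the second shMETTL3 (-0.50) or either shMETTL14 library (edgeR adjusted p = 0.0502 and 0.0504). Of 6 epithelial markers, KRT5 and KRT14 were at 0 throughout, and the sums, mostly KRT8, were 27 and 30, 21 and 11, 11 and 10, and 28 and 24. The 5 endothelial markers summed to 115 and 133, 43 and 52, 55 and 75, and 16 and 29, mostly TEK, which was lower in senescent shControl than in control cells (-1.04 ± 0.24) and lower with shMETTL14 than with shControl (-1.28 ± 0.32). The first of these calls of TEK was lost without the first shControl library (-0.89) and the second without the second shControl (-1.13) or first shMETTL14 library (-0.85). The part of these markers in the results was not tested. In bulk libraries, a smaller share of cells that transcribe a gene and less RNA per cell cannot be told apart.

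Genes were compared with edgeR, with Benjamini-Hochberg adjustment over the 12844 genes with enough counts to be tested, and "higher" and "lower" are used of genes with an adjusted p below 0.05. Fold changes are on the log2 scale with their standard error, and n is 2 libraries per group. The study describes the libraries as independent experiments and the labels say no more of their origin, so the p-values measure the spread between these libraries, part of which may be technical. The biological coefficient of variation of the fit was 10.6%.

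Only 14 of the 32 members could be tested, 4 ligands and 10 receptors, and a member could enter the test through the group where it was high. The 18 others comprised 7 ligands and 11 receptors. TNFRSF13C, the BAFF receptor, had 0 counts in all 8 libraries. For 12 of the 18, the highest count in any library was at most 3, and for 6 it was higher. These 6 were TNFRSF10C with up to 15, TNFSF12 with up to 12, TNFRSF25 with up to 9, TNFSF18 with up to 6, TNFRSF6B with up to 5 and TNFSF13 with up to 4 counts. TNFSF10, which encodes TRAIL, and TNFSF11, which encodes RANKL, reached 3 counts, as did TNFSF9, TNFSF14 and TNFRSF17. TNFRSF11A and TNFRSF8 reached 2, and TNFRSF4, TNFRSF13B, TNFRSF14 and TNFRSF18 reached 1. Counts of most of these genes were too few to compare groups, but a 95% counting interval of the depth-adjusted ratio excluded 1 for TNFSF12 and TNFRSF10C. Such an interval leaves out the spread between replicates and was not adjusted for the number of members and comparisons. Fits with a library left out, given below, share most of their libraries and are not independent. TNFSF12 had 2 counts in senescent shControl against 19 in control cells (ratio 0.137, interval 0.0155 to 0.570) and 0 with shMETTL3, where the upper limit of the ratio to control cells was 0.241. With shMETTL14 its ratio to control cells was 0.307 (0.0897 to 0.851). It entered the test when a library was left out, and was lower in senescent shControl than in control cells without the first or the second shMETTL3 library (-2.72 in each case, edgeR adjusted p = 0.032 and 0.030), but not past the threshold without any 1 of the other 5 libraries for which it was tested or with no filter on low counts (edgeR adjusted p between 0.091 and 0.38). With shMETTL3 it was lower than in control cells in each of the 7 left-out settings that tested it and with no filter (edgeR adjusted p between 0.0021 and 0.017). TNFRSF10C had 22 counts with shMETTL3 against 7 with shControl (ratio 2.70, interval 1.12 to 7.49) and 10 in control cells (2.47, 1.12 to 5.84), and was higher than in control cells without the first shMETTL3 library alone (1.67, edgeR adjusted p = 0.046).

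Some untested members shared reads with other annotated genes. TNFSF12 (TWEAK) and TNFSF13 (APRIL) lie wholly inside the readthrough gene TNFSF12-TNFSF13, and the decoy receptor gene TNFRSF6B lies wholly inside RTEL1-TNFRSF6B, so their counts are uncertain. TNFRSF10C shared 5.08% of its span with LOC254896 on the same strand and TNFRSF14 6.98% with an antisense gene on the opposite strand. None of the 14 tested members shared as much as 5% of its span with another gene, and the largest share was 1.95%, between TNFRSF10B and LOC286059 on the other strand. The values did not separate the strands. Among 315 pairs of a gene with at least 100 counts and an opposite-strand gene that spans it, the outer gene had fewer counts in any library in only 2, and the same held for 2 of 559 such pairs on the same strand. Reads of a member and of an antisense gene that overlaps it therefore cannot be told apart, and overlaps of the signalling genes were not assessed.

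**Figure D1:**
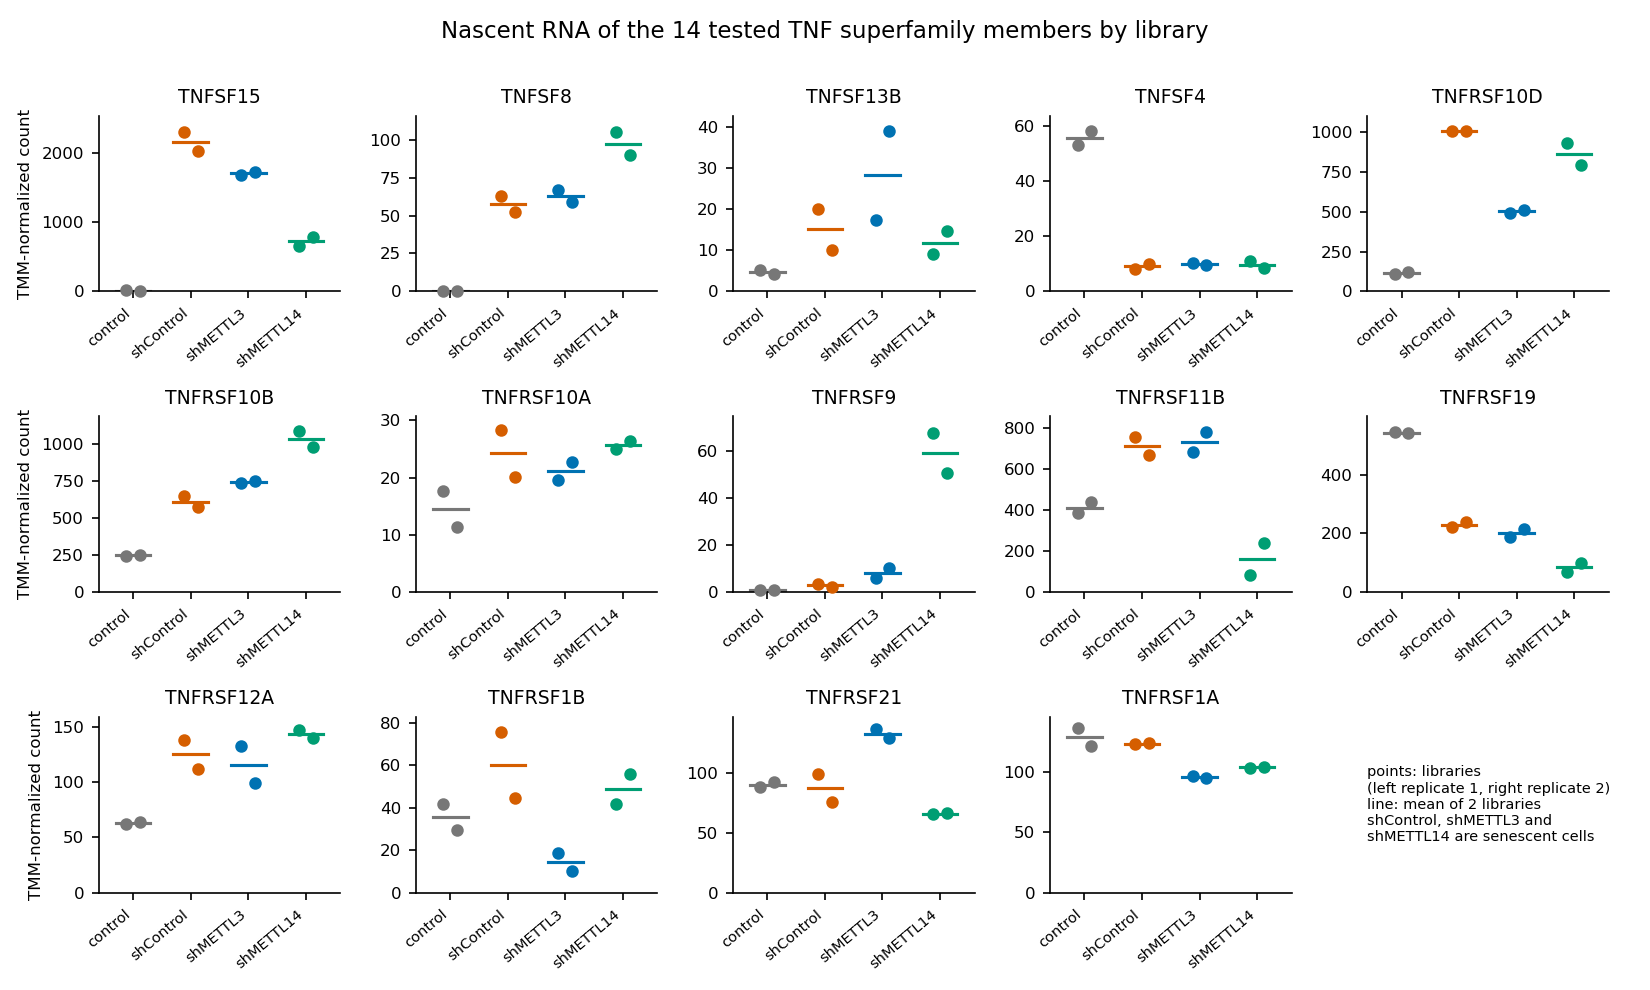
TMM-normalized counts (vertical axes, linear from 0) of the 14 tested members in each of the 8 libraries, by group; points are libraries and lines the mean of 2 libraries, and shControl, shMETTL3 and shMETTL14 are senescent cells. TNFSF15 and TNFSF8 were near or at 0 in control cells, TNFSF4 and TNFRSF19 were highest there, and TNFRSF9 was high in the shMETTL14 libraries.

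In senescent shControl cells compared with control cells, 7 of the 14 tested members were higher and 2 were lower. Over all genes tested, 13.3% were higher and 13.3% were lower. The 7 were the ligands TNFSF15, TNFSF8 and TNFSF13B and the receptors TNFRSF10D, TNFRSF10B, TNFRSF12A and TNFRSF11B, and the 2 were the ligand TNFSF4 and the receptor TNFRSF19. The median log2 fold change of the tested members was 0.89, also with TNFSF8 at its lower bound, against -0.03 over all genes. DESeq2 called 5 members higher and 2 lower, against 9.58% and 7.07% of all genes. Scaling by library size alone instead of TMM, which moved the median of all genes to -0.53, gave 4 members higher and 4 lower, against 5.85% and 39% of all genes with that scaling, and the median of all genes was -0.14 with library size counted without ribosomal RNA.

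TNFSF15, also called TL1A, is a ligand of the death-domain receptor TNFRSF25 and a costimulator of T cells. It had 16 and 5 counts in control libraries, 1950 and 1819 in senescent shControl, 1640 and 1822 in senescent shMETTL3 and 653 and 753 in senescent shMETTL14 libraries. All 6 senescent libraries were far above both control libraries, and the shMETTL14 libraries lay apart from and below the other 4 senescent ones. Its nascent RNA was 232-fold higher in senescent shControl than in control cells (7.86 ± 0.25, edgeR adjusted p = 4.3e-19), and the log2 value ranged from 7.25 without the second control library to 8.92 without the first, because the control level rested on few counts. It was lower with shMETTL14 than with shControl (-1.58 ± 0.16, edgeR adjusted p = 2.8e-08) and lower with shMETTL14 than with shMETTL3 (-1.24 ± 0.16, edgeR adjusted p = 7.7e-07). With shMETTL3 the difference from shControl was -0.34 ± 0.15 and not past the threshold (edgeR adjusted p = 0.11), and with library size alone it was above 0, at 0.28 (edgeR adjusted p = 0.16).

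In RPKM, counts scaled for gene length and TMM-adjusted depth, TNFSF15 stood at 0.0241 ± 0.0180 (SD, n = 2) in control, 5.62 ± 0.516 in shControl, 4.43 ± 0.0869 in shMETTL3 and 1.88 ± 0.258 in shMETTL14 cells. This made it the member with the highest mean level per length in senescent shControl cells, ahead of TNFRSF12A at 3.37 ± 0.515 and TNFRSF10D at 1.97 ± 0.00187. In control cells the highest member by RPKM was TNFRSF12A at 1.69 ± 0.0301, followed by TNFRSF11B at 0.802 ± 0.0729 and TNFRSF1A at 0.538 ± 0.0453. With shMETTL14, TNFRSF12A was again the highest at 3.87 ± 0.131, with TNFSF15 and then TNFRSF10D at 1.69 ± 0.187 behind it. The RPKM values of TNFSF15 and TNFRSF10D with shMETTL14 lay within 1 SD of each other. The genes ranked here differ in length, with 2070 bases for TNFRSF12A, 21493 for TNFSF15 and 28587 for TNFRSF11B. The part of gene length in the ranking was not tested.

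TNFSF15 also changed the make-up of the superfamily counts. It took 0.818% and 0.247% of all member counts in the control, 41.8% and 40.7% in the shControl, 39.0% and 38.5% in the shMETTL3 and 19.0% and 22.7% in the shMETTL14 libraries. The share of TNFRSF19 went the other way, from 31.5% and 30.7% in control libraries to 4.03% and 4.77% with shControl. Its mean normalized counts fell less, from 544 in control to 230 in shControl cells. A share also depends on the counts of the other members. Normalized counts of the 11 ligands together came to 85.0 and 80.1 in control, 2405 and 2106 in shControl, 1787 and 1850 in shMETTL3 and 789 and 916 in shMETTL14 libraries. Those of the 21 receptors came to 1647 and 1681, 3109 and 2869, 2527 and 2640, and 2639 and 2575 in the same order. TNFSF15 made up most of the ligand counts in the senescent libraries. Its mean normalized counts were 9.26 in control, 2165 in shControl, 1706 in shMETTL3 and 723 in shMETTL14 cells.

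**Figure D2:**
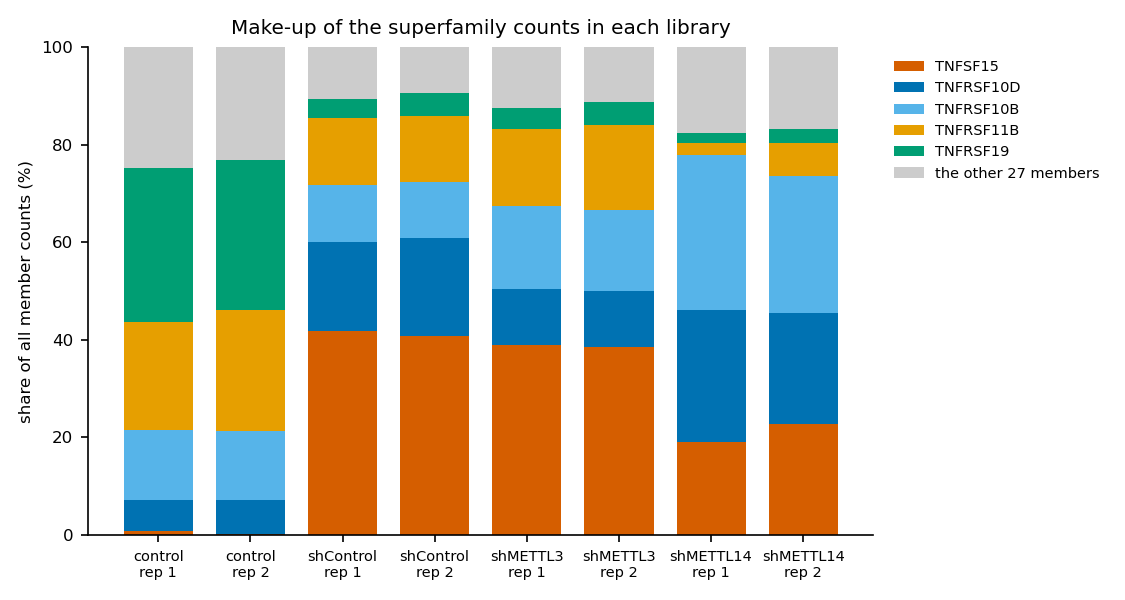
Share of all superfamily counts (vertical axis, percent) held by TNFSF15, TNFRSF10D, TNFRSF10B, TNFRSF11B, TNFRSF19 and the other 27 members in each of the 8 libraries. TNFSF15 held under 1% in both control libraries and 41.8% and 40.7% in the senescent shControl libraries.

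TNFSF15 (transcript NM_005118) was counted over chr9:117546915-117568408 on the minus strand of hg19. Sequence around the start of a gene is shown for TNFSF15 and TNFRSF9, because among members with a promoter entry TNFSF15 had the largest called change in senescence and TNFRSF9 the largest with shMETTL14. Each window runs from 250 bases before to 50 after a start and was searched on both strands for an AP-1 motif (TGANTCA) and an NF-kappaB motif (GGGNNNTTCC), in which N is any base, overlapping matches included. Capitals mark the matches. In GRCh37, the build of the counts, the window at the start of the counted TNFSF15 transcript is chr9:117568359-117568658, minus strand, and holds an NF-kappaB match at bases 43 to 52, from 208 bases before the start, and no AP-1 match. A second start in RefSeq lies 13.6 kb inside that transcript, and its window from the RefSeq promoter table, in GRCh38.p14 at chr9:114792481-114792780, minus strand, holds an AP-1 match at bases 131 to 137 and no NF-kappaB match.
TNFSF15 counted start: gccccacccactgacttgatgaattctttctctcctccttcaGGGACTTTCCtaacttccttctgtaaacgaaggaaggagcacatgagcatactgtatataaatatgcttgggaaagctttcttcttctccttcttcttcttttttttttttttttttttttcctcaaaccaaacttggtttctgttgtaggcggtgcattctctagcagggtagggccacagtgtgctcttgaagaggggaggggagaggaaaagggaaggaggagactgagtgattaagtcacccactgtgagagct
TNFSF15 second start: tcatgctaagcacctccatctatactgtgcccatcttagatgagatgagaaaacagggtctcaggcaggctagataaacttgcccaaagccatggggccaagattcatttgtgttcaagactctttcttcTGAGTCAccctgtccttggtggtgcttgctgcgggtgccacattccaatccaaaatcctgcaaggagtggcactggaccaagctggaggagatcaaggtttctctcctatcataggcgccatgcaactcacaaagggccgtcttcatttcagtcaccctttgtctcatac

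In windows at the counted starts of 27820 genes, 6.97% held the AP-1 motif and 6.4% the NF-kappaB motif. In the 35116 windows of the RefSeq table the shares were 7.71% and 6.52%. A promoter entry was found for 21 of the 32 members, 8 of them tested. At the counted starts of these 21, the AP-1 motif was found for 1, the untested TNFRSF8, and the NF-kappaB motif for 2, TNFSF15 and the untested TNFSF13. In the RefSeq windows the AP-1 motif was found for 4, TNFSF15, TNFSF14, TNFRSF8 and TNFRSF9, and the NF-kappaB motif for 2, TNFSF13 and TNFRSF9. A match describes the letters of the window and does not show that a factor binds there.

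TNFSF8 encodes CD30 ligand, which binds the receptor TNFRSF8 on activated lymphocytes. It had 0 and 0 counts in control, 53 and 47 in shControl, 65 and 62 in shMETTL3 and 105 and 85 in shMETTL14 libraries. Every senescent library held counts where both control libraries held none, and both shMETTL14 libraries were above the other senescent ones. Against a floor of 3 counts over the control group, which leaves out the error of the senescent counts, TNFSF8 was at least 43.5-fold higher in senescent shControl cells (edgeR adjusted p = 3.6e-10), and the 95% counting interval of the depth-adjusted ratio began at 34.7. The difference between shMETTL14 and shControl was 0.76 ± 0.23 (edgeR adjusted p = 0.018). That call was lost with DESeq2 (adjusted p = 0.13), and without the first shControl library (0.89), the second (0.63) or the first shMETTL14 library (0.62), with edgeR adjusted p-values of 0.059, 0.196 and 0.226. With shMETTL3 the difference from shControl was 0.13 ± 0.24, not past the threshold.

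TNFSF15 and TNFSF8 are neighbours on chromosome 9. TNFSF8 (NM_001252290) was counted over chr9:117655623-117692875, minus strand, 87.2 kb from TNFSF15 with no annotated gene between them, and TNC, which encodes the matrix protein tenascin C, follows 89.0 kb further. Within 250 kb of the pair lay 9 genes, of which 6 were tested, and the 4 tested genes that are not members were all higher in senescent shControl than in control cells, against 13.3% of all genes. These were ATP6V1G1, a subunit of the vacuolar proton pump (0.99 ± 0.19), TMEM268 (1.34 ± 0.47), TNC (1.63 ± 0.14) and DEC1 (2.30 ± 0.80), named after their values were seen. DEC1 had 2 and 2 counts in control and 6 and 10 in shControl libraries and TMEM268 16 and 6 and 24 and 19, and both were near the threshold (edgeR adjusted p = 0.034 and 0.035). DESeq2 called neither (adjusted p = 0.11 and 0.12), which gave 2 of 4 higher against 9.58% of all genes, and 1 of 4, TNC, was higher with library size alone, against 5.85%. The count was also 2 without the second control library or either shControl library, and 3 without the first control library, either shMETTL14 library or with library size without ribosomal RNA, where DEC1 or TMEM268 lost its call. With 1409 and 1343 counts in control and 3279 and 3228 in senescent shControl libraries, TNC had far more counts than TNFSF8 throughout. TNC was lower with shMETTL3 than with shControl (-0.61 ± 0.13, edgeR adjusted p = 0.0013), the 1 neighbour of 4 lower, against 11.2% of all genes. With library size alone TNC was at 0.01 (edgeR adjusted p = 0.97), and 1 of the 4 was higher and 0 lower, against 41.2% and 2.75%. With shMETTL14 TNC was at -0.32 ± 0.13 (edgeR adjusted p = 0.086), and 0 of the 4 were called either way, against 9.15% and 12% of all genes. At an unadjusted p below 0.05, 2 were lower with shMETTL14, and without either shMETTL3 library a lower call was gained.

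**Figure D3:**
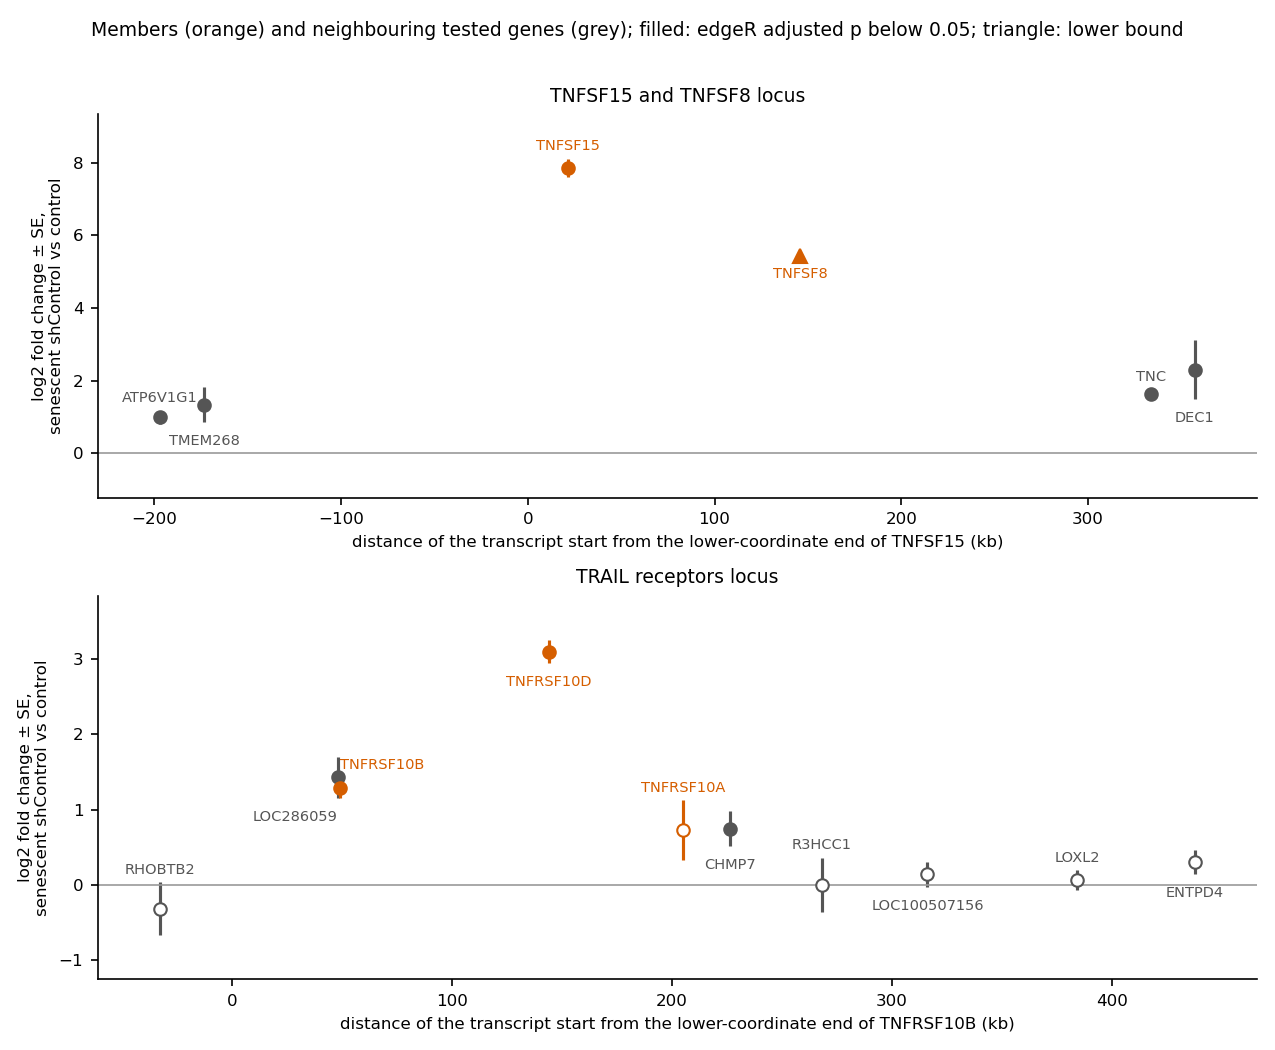
log2 fold change with its standard error between senescent shControl and control cells (vertical axes) of the tested genes within 250 kb of 2 member clusters, by the distance of each transcript start from the lower-coordinate end of TNFSF15 or TNFRSF10B in kb (horizontal axes); orange marks members, grey the other genes, filled points an edgeR adjusted p below 0.05 and the triangle the lower bound for TNFSF8. TNFSF15 at 7.86 and TNFSF8 at a bound of 5.44 stood above their neighbours, and TNFRSF10D at 3.10 above its own.

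TNFSF13B encodes BAFF, a survival factor for B cells. Its counts were 6 and 5 in control, 17 and 9 in shControl, 17 and 41 in shMETTL3 and 9 and 14 in shMETTL14 libraries. The control libraries were the lowest, shControl overlapped with each knockdown, and the shMETTL14 libraries lay below the shMETTL3 ones. The difference between senescent shControl and control cells was at the threshold (1.61 ± 0.60, edgeR adjusted p = 0.0499). It was lost with DESeq2 (adjusted p = 0.13), with library size alone (1.11) or counted without ribosomal RNA (1.5), with the replicate number as a block (1.62, edgeR adjusted p = 0.056), and without the first control (1.76), the second control (1.48), the first shControl (1.04), or the first (1.64) or second (1.62) shMETTL14 library, with edgeR adjusted p-values between 0.051 and 0.449. Neither knockdown differed from shControl past the threshold (0.92 ± 0.46 with shMETTL3 and -0.34 ± 0.53 with shMETTL14), although without the first shMETTL3 library the first value was 1.36 with an edgeR adjusted p of 0.017, and without the second it was 0.20.

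TNFSF4 encodes OX40 ligand, a costimulator of T cells. It was counted over chr1:173152870-173176452, minus strand (NM_003326), and had 60 and 67 counts in control, 7 and 9 in shControl, 10 and 10 in shMETTL3 and 11 and 8 in shMETTL14 libraries. Both control libraries were far above all 6 senescent libraries, which overlapped. TNFSF4 was 6.01-fold lower in senescent shControl than in control cells (-2.59 ± 0.37, edgeR adjusted p = 4.8e-06). It did not differ past the threshold between either knockdown and shControl, at 0.10 ± 0.50 with shMETTL3 and 0.09 ± 0.50 with shMETTL14, with standard errors that reflect how few counts remained.

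Among receptors, those for TRAIL form a cluster on the short arm of chromosome 8. TNFRSF10A (DR4) and TNFRSF10B (DR5) carry death domains, whereas TNFRSF10C and TNFRSF10D are decoys, the first without and the second with a truncated cytoplasmic tail. TNFRSF10D had 126 and 140 counts in control, 848 and 902 in shControl, 479 and 540 in shMETTL3 and 930 and 755 in shMETTL14 libraries. All senescent libraries were above the control ones, and the shMETTL3 libraries lay between the controls and the other senescent libraries. TNFRSF10D was 8.58-fold higher in senescent shControl than in control cells (3.10 ± 0.15, edgeR adjusted p = 4.0e-15). It was lower with shMETTL3 than with shControl (-1.0 ± 0.13, edgeR adjusted p = 3.5e-06), but with library size alone, which shifted the median of all genes in that comparison to 0.58, the value was -0.38 with an edgeR adjusted p of 0.062. With shMETTL14 the difference from shControl was -0.22 ± 0.13, and with shMETTL14 the gene was higher than with shMETTL3 (0.78 ± 0.13, edgeR adjusted p = 5.0e-05).

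TNFRSF10B, the death-domain receptor DR5, had 278 and 287 counts in control, 545 and 513 in shControl, 717 and 787 in shMETTL3 and 1086 and 929 in shMETTL14 libraries. The groups did not overlap after normalization, with the controls lowest and the shMETTL14 libraries highest. It was higher in senescent shControl than in control cells (1.29 ± 0.14, edgeR adjusted p = 4.4e-08) and higher again with shMETTL14 than with shControl (0.76 ± 0.13, edgeR adjusted p = 0.00011). With shMETTL3 the difference from shControl was 0.29 ± 0.13 (edgeR adjusted p = 0.12). TNFRSF10A (DR4) had between 13 and 25 counts in every library and passed the threshold in no comparison with edgeR, with 0.73 ± 0.39 between senescent shControl and control cells, -0.19 ± 0.38 with shMETTL3 and 0.09 ± 0.37 with shMETTL14. In RPKM, TNFRSF10D and TNFRSF10B were close in control cells, at 0.229 ± 0.0143 and 0.282 ± 0.00300, and apart in senescent shControl cells, at 1.97 ± 0.00187 and 0.691 ± 0.0590.

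In hg19, TNFRSF10B spans chr8:22877648-22926700, TNFRSF10C chr8:22960327-22974950, TNFRSF10D chr8:22993101-23021543 and TNFRSF10A chr8:23048970-23082680, all on the minus strand but TNFRSF10C. The gaps between them were 33.6, 18.2 and 27.4 kb. Within 250 kb of the cluster lay 15 genes, 10 of them tested and 7 of these outside the family. Of the 7, LOC286059 and CHMP7, which encodes an ESCRT protein, were higher in senescent shControl cells (1.43 ± 0.28 and 0.74 ± 0.23), and 0 were lower with edgeR, DESeq2 or at an unadjusted p below 0.05, against 13.3% of all genes in each direction. CHMP7 lost its call with DESeq2 (adjusted p = 0.10), with library size alone (0.25), which gave 1 higher and 2 lower against 5.85% and 39% of all genes, and without either control library or the second shControl library (0.53). RHOBTB2, which shares 62 bases with TNFRSF10B on the other strand, was at -0.32 ± 0.35. LOC286059, a pseudogene on the opposite strand that shares 958 bases with the start of TNFRSF10B and so some of its reads, was also higher with shMETTL14 than with shControl (0.96 ± 0.22, edgeR adjusted p = 0.0025), but not past the threshold without the first shMETTL14 library (0.87, edgeR adjusted p = 0.056). Other neighbours went the other way. LOXL2, which encodes a lysyl oxidase-like enzyme (-0.69 ± 0.14, edgeR adjusted p = 0.00050), and LOC100507156 (-0.61 ± 0.18, edgeR adjusted p = 0.014) were lower with shMETTL14 than with shControl, and ENTPD4 was lower with shMETTL3 (-0.94 ± 0.17, edgeR adjusted p = 0.00020). Of the 7, this made 1 higher and 2 lower with shMETTL14, against 9.15% and 12% of all genes, and 1 lower with shMETTL3, against 11.2%. Without the first shMETTL3 library more of the 7 were lower with shMETTL3, as were more of all genes. Library size alone ended the calls of LOXL2 (-0.34), LOC100507156 (-0.26) and ENTPD4 (-0.33) and gave 3 higher and 0 lower under each knockdown, against 24.6% and 5.52% with shMETTL14 and 41.2% and 2.75% with shMETTL3. LOC100507156 also lost its call with DESeq2 (adjusted p = 0.072) and without any 1 of the shControl and shMETTL14 libraries. These neighbours were named after their values were seen.

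TNFRSF11B encodes osteoprotegerin, a secreted decoy receptor for RANKL and TRAIL. Its counts were 434 and 502 in control, 640 and 600 in shControl, 663 and 822 in shMETTL3 and 85 and 227 in shMETTL14 libraries. The shMETTL14 libraries were below all others but differed from each other. TNFRSF11B was higher in senescent shControl than in control cells (0.79 ± 0.22, edgeR adjusted p = 0.0066), a call that was lost with DESeq2 (0.80, adjusted p = 0.30), with library size alone (0.29), and without the first control library (0.71, edgeR adjusted p = 0.083) or the first shControl library (0.71, edgeR adjusted p = 0.094). It was lower with shMETTL14 than with shControl (-2.14 ± 0.24, edgeR adjusted p = 1.4e-07), at -3.07 without the second shMETTL14 library and -1.59 without the first. With shMETTL14 it was also lower than in control cells (-1.35 ± 0.24, edgeR adjusted p = 4.4e-05), at -2.26 and -0.76 without the second and the first shMETTL14 library.

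TNFRSF19, or TROY, is an orphan receptor known from neural and skin development. It had 617 and 621 counts in control, 188 and 213 in shControl, 183 and 228 in shMETTL3 and 69 and 95 in shMETTL14 libraries. The 2 control libraries were highest and the shMETTL14 libraries lowest, with no overlap. TNFRSF19 was 2.37-fold lower in senescent shControl than in control cells (-1.24 ± 0.15, edgeR adjusted p = 1.7e-07) and 2.72-fold lower with shMETTL14 than with shControl (-1.45 ± 0.17, edgeR adjusted p = 6.5e-07). With shMETTL3 the difference from shControl was -0.18 ± 0.16, not past the threshold. In RPKM its level was 0.287 ± 0.00210 in control, 0.121 ± 0.00552 in shControl, 0.107 ± 0.0107 in shMETTL3 and 0.0446 ± 0.0116 in shMETTL14 cells.

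TNFRSF9 encodes 4-1BB (CD137), a costimulatory receptor of activated lymphocytes that is itself a known target of NF-kappaB. Its counts were 1 and 1 in control, 3 and 2 in shControl, 6 and 11 in shMETTL3 and 68 and 48 in shMETTL14 libraries. The gene was near 0 in the first 4 libraries and stood out in the shMETTL14 libraries. With shMETTL14 it was higher than with shControl (4.31 ± 0.50, edgeR adjusted p = 4.0e-07), where 116 counts stood against 5, a depth-adjusted ratio of 20.8 with a 95% counting interval of 8.64 to 65.1. It was also higher with shMETTL14 than with shMETTL3 (2.81 ± 0.40, edgeR adjusted p = 4.0e-06). The differences of 1.58 ± 1.06 between senescent shControl and control cells and of 1.5 ± 0.70 between shMETTL3 and shControl did not pass the threshold, although with library size alone the second was 2.11 with an edgeR adjusted p of 0.011.

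TNFRSF9 (NM_001561) was counted over chr1:7975931-8003225, minus strand, of hg19. The window at that start held neither motif. A RefSeq start lies 2.33 kb inside the counted transcript, and its window, in GRCh38.p14 at chr1:7940790-7941089, minus strand, held NF-kappaB matches at bases 177 to 186 on the plus strand of the window and 178 to 187 on the other, which overlap, and an AP-1 match at bases 207 to 213, from 44 bases before the start. Of the 21 members with an entry it was the only 1 with both motifs in its RefSeq window.
TNFRSF9 RefSeq start: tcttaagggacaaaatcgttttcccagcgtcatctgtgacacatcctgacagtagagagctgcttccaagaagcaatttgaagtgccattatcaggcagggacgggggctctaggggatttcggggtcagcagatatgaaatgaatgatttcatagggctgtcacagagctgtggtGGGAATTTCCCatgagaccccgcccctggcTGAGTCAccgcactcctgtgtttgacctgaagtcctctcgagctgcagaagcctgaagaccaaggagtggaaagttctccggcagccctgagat

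TNFRSF12A, or Fn14, is the receptor of TWEAK and a growth-factor responsive gene of fibroblasts. It had 70 and 73 counts in control, 117 and 100 in shControl, 129 and 104 in shMETTL3 and 147 and 133 in shMETTL14 libraries. All senescent libraries were above the control ones. TNFRSF12A was higher in senescent shControl than in control cells (0.99 ± 0.20, edgeR adjusted p = 0.00042), but with library size alone the value was 0.49 with an edgeR adjusted p of 0.079. The differences of -0.11 ± 0.19 with shMETTL3 and 0.20 ± 0.18 with shMETTL14 from shControl did not pass the threshold, although with library size alone the second was 0.56 with an edgeR adjusted p of 0.042. Counts of its ligand gene TNFSF12, which could not be tested, were 7 and 12 in control, 2 and 0 in shControl, 0 and 0 in shMETTL3 and 3 and 2 in shMETTL14 libraries.

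The receptors of TNF itself were TNFRSF1A (TNFR1), which has a death domain, and TNFRSF1B (TNFR2), which binds TRAF2. TNFRSF1B had 47 and 34 counts in control, 64 and 40 in shControl, 18 and 11 in shMETTL3 and 42 and 53 in shMETTL14 libraries. The shMETTL3 libraries were below all others. TNFRSF1B was 4.15-fold lower with shMETTL3 than with shControl (-2.05 ± 0.36, edgeR adjusted p = 0.00012). Between senescent shControl and control cells it was at 0.75 ± 0.30, not past the threshold (edgeR adjusted p = 0.069), but past it with no filter on low counts (0.77), with only the groups compared (0.79), and without the second shControl library (1.10) or either shMETTL3 library (0.76 in each case), with edgeR adjusted p-values between 0.011 and 0.038. TNFRSF1A had between 94 and 154 counts and did not pass the threshold in these 3 comparisons, with -0.06 ± 0.17 between senescent shControl and control cells, -0.36 ± 0.18 with shMETTL3 and -0.25 ± 0.18 with shMETTL14, although with library size alone the first was -0.56 with an edgeR adjusted p of 0.029.

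TNFRSF21, or DR6, is a death-domain receptor. It had 100 and 106 counts in control, 84 and 68 in shControl, 133 and 136 in shMETTL3 and 66 and 63 in shMETTL14 libraries. The shMETTL3 libraries were the highest and the shMETTL14 libraries the lowest. TNFRSF21 was higher with shMETTL3 than with shControl (0.60 ± 0.19, edgeR adjusted p = 0.020), a call lost with DESeq2 (adjusted p = 0.11), with only the groups compared (0.58, edgeR adjusted p = 0.051), with library size counted without ribosomal RNA (0.50, edgeR adjusted p = 0.055), an alternative chosen after seeing the data, and without the second shControl library (0.41, edgeR adjusted p = 0.30). It was lower with shMETTL14 than with shMETTL3 (-1.0 ± 0.19, edgeR adjusted p = 0.00019). Between senescent shControl and control cells it was at -0.05 ± 0.19, but at -0.55 with an edgeR adjusted p of 0.0455 with library size alone.

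**Figure D4:**
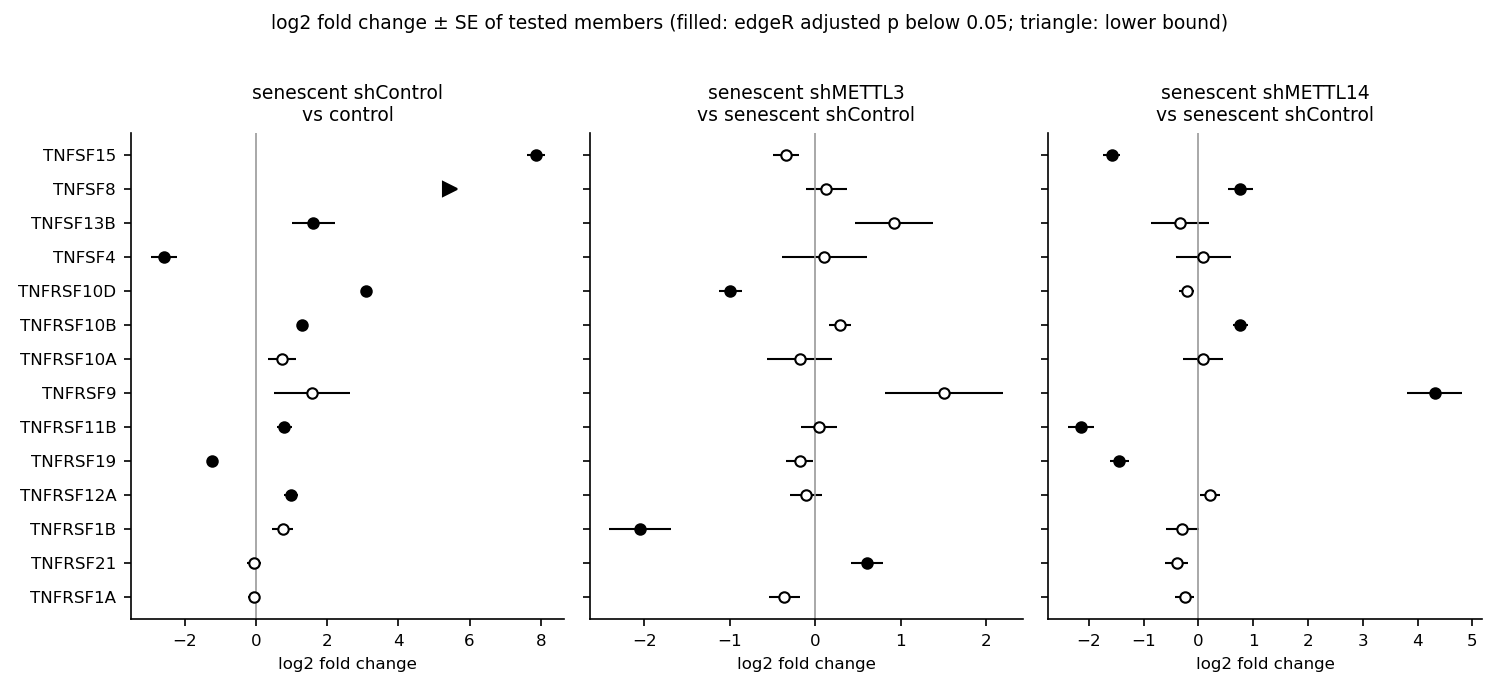
log2 fold change with its standard error (horizontal axes, each panel with its own scale) of the 14 tested members (vertical axis) in 3 comparisons; filled points have an edgeR adjusted p below 0.05, and the triangle is the lower bound for TNFSF8, which had 0 counts in control cells. TNFSF15 was at 7.86 and TNFSF8 at a bound of 5.44 in the first panel, TNFRSF1B lowest in the second at -2.05 and TNFRSF9 highest in the third at 4.31.

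Seen by comparison, 3 of the 14 tested members differed past the threshold between senescent shMETTL3 and senescent shControl cells. TNFRSF21 was higher (1 of 14, against 12.3% of all genes), and TNFRSF10D and TNFRSF1B were lower (2 of 14, against 11.2%). The median over tested members was -0.04, against -0.03 over all genes. Of the 4 tested ligands, 0 were called in either direction with edgeR or with DESeq2, and at an unadjusted p below 0.05 there were 0 higher and 1 lower. The split between directions differed between settings. With library size alone 6 members were higher (TNFRSF21, TNFRSF10B, TNFRSF11B, TNFRSF9, TNFSF8 and TNFSF13B) and 1 lower, against 41.2% and 2.75% of all genes with that scaling, with DESeq2 0 and 2, against 7.56% and 5.66%, and with library size without ribosomal RNA, which shifted the median of all genes to -0.15, 0 and 3, against 9.3% and 14.6%, with TNFSF15 then at -0.45 (edgeR adjusted p = 0.028). Only the groups compared gave 0 members higher, against 10.9% of all genes, as did leaving out the second shControl library, against 5.64%, and leaving out the first shMETTL3 library gave 2, against 14.2%. Values below 0 that did not pass the threshold were above 0 with library size alone for TNFSF15, TNFRSF19 (0.44), TNFRSF10A (0.43), TNFRSF1A (0.25) and TNFRSF12A (0.50).

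Between senescent shMETTL14 and senescent shControl cells, 6 of the 14 differed past the threshold. TNFRSF9, TNFRSF10B and TNFSF8 were higher (3 of 14, against 9.15% of all genes) and TNFRSF11B, TNFSF15 and TNFRSF19 were lower (3 of 14, against 12%). The median over tested members was -0.23, against -0.00 over all genes. With library size alone, which shifted the median of all genes to 0.35, the split was 4 and 3, against 24.6% and 5.52% of all genes, and the values of TNFRSF10D (0.14), TNFRSF1A (0.10), TNFRSF1B (0.06) and TNFSF13B (0.01) were above 0 and still not past the threshold. In the same comparison 8 of 11 fibroblast markers, the endothelial marker TEK and 5 of 9 senescence markers were lower, and their part in these results was not tested.

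The knockdowns were also compared with each other, since a call in 1 of them alone does not show that they differ. With shMETTL14 compared with shMETTL3, 5 of the 14 members were higher, against 16.5% of all genes, and 5 were lower, against 18.7%. Higher were TNFRSF9, TNFRSF1B (1.76 ± 0.36), TNFRSF10D, TNFSF8 (0.63 ± 0.22) and TNFRSF10B (0.48 ± 0.13). Lower were TNFRSF11B (-2.18 ± 0.23), TNFRSF19 (-1.26 ± 0.17), TNFSF13B (-1.26 ± 0.47), TNFSF15 and TNFRSF21. In the same comparison, against the same shares of all genes, 7 of 11 fibroblast markers were lower and 1 was higher, with a median of -0.78. TEK was lower (-1.52), and the 1 tested epithelial marker was higher (1.38), though not with DESeq2. Of 9 senescence markers, 4 were higher and 1 was lower. The part of these markers in the results was not tested. With library size alone, which shifted the median of all genes to -0.25, 3 members were higher and 5 lower, against 9.16% and 27.1% of all genes, and with library size without ribosomal RNA, which shifted it to 0.22, 6 and 4, against 25.1% and 12.9%. Without the first shMETTL14 library 3 were higher, against 7.31%. TNFRSF11B was at -3.09 without the second shMETTL14 library. TNFSF13B lost its call with DESeq2 (adjusted p = 0.15), with the replicate number as a block (-1.23, edgeR adjusted p = 0.051), with only the groups compared (-1.24, edgeR adjusted p = 0.059), with library size without ribosomal RNA (-1.05, edgeR adjusted p = 0.081), and without the second shMETTL3 library (-0.54) or the first (-0.96) or second (-1.64) shMETTL14 library, with edgeR adjusted p-values between 0.063 and 0.52. The calls of TNFSF8 (edgeR adjusted p = 0.028) and TNFRSF10B (edgeR adjusted p = 0.0055) were lost with library size alone and without the first shMETTL14 library, at 0.49 and 0.38, and that of TNFSF8 also with DESeq2 (adjusted p = 0.17) and without the second shMETTL3 library, at 0.56. TNFRSF12A was at 0.32 ± 0.18, but past the threshold at 0.55 without the first shMETTL3 library (edgeR adjusted p = 0.024) and at 0.52 with library size without ribosomal RNA (edgeR adjusted p = 0.028).

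Against control cells, which are the same libraries as in the senescence comparison, 9 of the 14 members were higher with shMETTL3, against 20.1% of all genes, and 4 were lower, against 20.1%. The corresponding numbers with shMETTL14 were 6 higher, against 19.7%, and 3 lower, against 20.5%. Of 11 fibroblast markers, against the same shares, 7 were lower and 0 higher with shMETTL3 (median -1.27), and 10 lower and 1 higher with shMETTL14 (median -2.05). TEK was lower with each (-0.80 and -2.31), CD68 was higher with each (1.21 and 1.68), and the 1 tested epithelial marker was lower with shMETTL3 (-1.33). DESeq2 called neither TEK nor the epithelial marker with shMETTL3. The part of these markers was not tested. Library size alone shifted the median of all genes to -0.14 with shMETTL14, and library size without ribosomal RNA to -0.26 with shMETTL3. TNFSF15 was at 7.51 ± 0.25 with shMETTL3 and 6.27 ± 0.26 with shMETTL14, beside 7.86 with shControl. Without the first control library these were 8.57 and 7.33, and without the second 6.89 and 5.66. TNFSF8 was at least 47.5-fold and 74.0-fold higher than the floor over the control group, with 95% counting intervals that began at 38.1 and 59.6. TNFRSF10D was at 2.10 ± 0.15 and 2.88 ± 0.15, and TNFRSF10B at 1.58 ± 0.14 and 2.06 ± 0.14. TNFSF4 was at -2.48 ± 0.36 and -2.50 ± 0.36, and TNFRSF19 at -1.43 ± 0.15 and -2.69 ± 0.16.

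The remaining members differed from control cells as follows. TNFRSF9 gave depth-adjusted ratios of 9.55 with shMETTL3 (95% counting interval 2.27 to 85.2) and 67.7 with shMETTL14 (18.3 to 566), against only 2 counts in control cells. TNFSF13B was higher with shMETTL3 (2.53 ± 0.53), at 1.82 without the second shMETTL3 library, and TNFRSF1B was lower (-1.30 ± 0.37). TNFRSF21 was higher (0.55 ± 0.18), but not past the threshold with DESeq2 (adjusted p = 0.083), with library size without ribosomal RNA (0.34, edgeR adjusted p = 0.12), or without the first (0.52) or second (0.58) control library. With shMETTL14 it was at -0.45 ± 0.20, not past the threshold (edgeR adjusted p = 0.073), but past it with library size alone (-0.60, edgeR adjusted p = 0.038) and with only the groups compared (edgeR adjusted p = 0.045). TNFRSF1B was at -1.05 without the first control library and at -0.95 without the second shMETTL3 library, with edgeR adjusted p-values of 0.086 and 0.076. TNFRSF12A was at 0.87 ± 0.20 and 1.19 ± 0.19 and TNFRSF11B at 0.83 ± 0.21, a call lost with DESeq2 (adjusted p = 0.20), and -1.35. TNFRSF1A was lower with shMETTL3 at the threshold (-0.43 ± 0.17, edgeR adjusted p = 0.0498), a call lost with DESeq2 (adjusted p = 0.23), with library size alone (-0.31), with TMM without ribosomal RNA genes, with no filter on low counts, with only the groups compared, and without any 1 of the 8 libraries, where edgeR adjusted p-values lay between 0.063 and 0.28.

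Genes for superfamily proteins under other symbols were read next. None of 7 further ligands had enough counts to be tested. TNF had 0 counts in all libraries but those with shMETTL14, which held 2 and 1, and LTA, LTB and CD40LG were at 0 throughout, while FASLG and CD70 reached 1 count and EDA 7. Of 8 further receptors, FAS, LTBR, EDA2R and RELT were tested. In senescent shControl cells 1 was higher than in control cells, LTBR, the lymphotoxin beta receptor (0.60 ± 0.20, edgeR adjusted p = 0.025), and 0 were lower with edgeR or DESeq2 or at an unadjusted p below 0.05, against 13.3% of all genes in each direction, while with library size alone 0 were called either way, against 5.85% and 39%, and DESeq2 called 0 higher, against 9.58%. With shMETTL3, EDA2R, the receptor of ectodysplasin A2 (1.20 ± 0.20), and FAS, the death receptor of FAS ligand (1.13 ± 0.24), were higher and LTBR was lower (-0.82 ± 0.21) than with shControl, against 12.3% and 11.2% of all genes, and with library size alone 2 were higher and 0 lower, against 41.2% and 2.75%. With shMETTL14, FAS (0.78 ± 0.25) and EDA2R (0.66 ± 0.21) were higher and 0 lower with edgeR, DESeq2 or at an unadjusted p below 0.05, against 9.15% and 12% of all genes, though DESeq2 called 0 higher, against 4.42%, as did edgeR without the first or the second shMETTL14 library, against 3.57% and 6%. Without the first shControl library EDA2R lost that call (0.45), and without the second FAS did (0.55). All 4 were higher with shMETTL14 when scaled by library size alone, against 24.6% of all genes. The call of LTBR in senescence was also lost with library size without ribosomal RNA (0.50, edgeR adjusted p = 0.063) and without either control library or the first shControl library, and that of LTBR with shMETTL3 without the first shControl library. FAS with shMETTL3 lost its call without the second shControl (0.89) or second shMETTL3 library (0.60).

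Of 17 adaptors and death-domain proteins, 15 were tested. In senescent shControl compared with control cells 3 were higher and 1 was lower, against 13.3% of all genes in each direction, with a median of 0.21. Higher were MLKL, the executor of necroptosis (1.63 ± 0.42), TRAF1, an adaptor bound by TNFR2 and 4-1BB (1.62 ± 0.39), and, named after its value was seen, TRAF3 (0.40 ± 0.15), and TRAF5 was lower (-1.34 ± 0.27). With shMETTL3 1 was higher, TRAF3 (0.63 ± 0.14), and 1 was lower, BID, which links caspase-8 to mitochondria (-0.69 ± 0.23), against 12.3% and 11.2% of all genes, with a median of -0.13. With shMETTL14 3 were higher and 2 lower, against 9.15% and 12%, with a median of 0.30. TRAF1 had 5 and 16 counts in control, 25 and 25 in shControl, 34 and 43 in shMETTL3 and 198 and 183 in shMETTL14 libraries, and was at 2.76 ± 0.25 (edgeR adjusted p = 4.3e-09) with shMETTL14. Among the lower genes was CASP8, the initiator caspase of death receptors (-1.02 ± 0.36), and TRAF3 (0.71 ± 0.14) and TRAF4 (0.76 ± 0.27), named after their values were seen, were higher. With library size alone the splits were 2 higher and 1 lower in senescence, against 5.85% and 39% of all genes with that scaling, 5 and 0 with shMETTL3, against 41.2% and 2.75%, and 7 and 1 with shMETTL14, against 24.6% and 5.52%. DESeq2 called 2 and 1 in senescence, against 9.58% and 7.07%, 1 and 0 with shMETTL3, against 7.56% and 5.66%, and 2 and 1 with shMETTL14, against 4.42% and 7.4%. In senescence 0 were higher without the first control library, against 8.65%, where TRAF1 was at 1.04 and MLKL at 1.27, and TRAF3 lost its call with DESeq2 (adjusted p = 0.15), with library size alone (-0.09) or counted without ribosomal RNA (0.30), with no filter on low counts (edgeR adjusted p = 0.056) and without any 1 of the control and shControl libraries. With shMETTL3 the call of TRAF3 was lost without the first shControl library and that of BID without the first shControl or second shMETTL3 library, with DESeq2 (adjusted p = 0.15) and with library size alone (-0.08). With shMETTL14 that of CASP8 was lost with DESeq2 (adjusted p = 0.16), with library size alone (-0.65) or counted without ribosomal RNA (-0.92, edgeR adjusted p = 0.073), with the replicate number as a block (edgeR adjusted p = 0.052) and without either library of control or shMETTL14 or the first of shControl (-0.28), and that of TRAF4 with DESeq2 (adjusted p = 0.19), with the block (0.75, edgeR adjusted p = 0.057) and without either shControl library or the first shMETTL14 library, while TRAF1 kept its call in each setting.

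Of 19 genes for ubiquitin and kinase steps between receptor and NF-kappaB, all were tested. In senescent shControl cells 6 were higher and 2 lower than in control cells, against 13.3% of all genes in each direction, with a median of 0.22, and with library size alone 4 were higher and 6 lower, against 5.85% and 39%. TNFAIP3, which encodes the deubiquitinase A20 that limits NF-kappaB signalling, had 26 and 40 counts in control, 126 and 132 in shControl, 124 and 200 in shMETTL3 and 964 and 741 in shMETTL14 libraries. It was at 2.35 ± 0.24 in senescence (edgeR adjusted p = 1.2e-08), next to its partner TNIP1 at 1.99 ± 0.15 and the ubiquitin ligase BIRC3 (cIAP2) at 1.77 ± 0.32. The 2 lower genes, named after their values were seen, were the kinase gene MAP3K14 (-1.58 ± 0.39) and IKBKG (-1.27 ± 0.39), and 0 were lower without the first shControl library, against 5.59% of all genes. IKBKG alone lost its call with DESeq2 (adjusted p = 0.093) and without the second control (edgeR adjusted p = 0.12) or second shControl library (edgeR adjusted p = 0.097), which left 1 lower. The count higher was 4 without the first control or first shControl library, against 8.65% and 7.82%. DESeq2 called 5 higher and 1 lower, against 9.58% and 7.07%. With shMETTL3 2 were higher and 2 lower than with shControl, against 12.3% and 11.2% of all genes, with a median of -0.11, among them ADAM17, the protease that sheds TNF (0.56 ± 0.16), BIRC3 (-0.80 ± 0.29) and IKBKG, the regulatory subunit of the IKK complex (-1.56 ± 0.55), and, named after its value was seen, MAP3K7 (0.46 ± 0.14), while DESeq2 called 1 higher and 0 lower, against 7.56% and 5.66%, and with library size alone 10 were higher and 0 lower, against 41.2% and 2.75%. IKBKG, which has a near-identical pseudogene and so uncertain counts, had 13 and 1 counts in shMETTL3 libraries and was at -0.64 without the second. BIRC3 lost its call with shMETTL3 with the replicate number as a block (-0.79, edgeR adjusted p = 0.055), with TMM without ribosomal RNA genes (edgeR adjusted p = 0.051) and without the first shControl (-0.45), the first shMETTL3 (-0.53) or either shMETTL14 library. Only the groups compared ended the calls of BIRC3 and IKBKG (edgeR adjusted p = 0.082 and 0.088), and library size without ribosomal RNA that of MAP3K7 (0.35, edgeR adjusted p = 0.062). The counts with shMETTL3 changed with any 1 library left out, and so did the shares of all genes. ADAM17 and MAP3K7 lost their calls without the first shControl (0.51 and 0.44), second shControl (0.59 and 0.46) or second shMETTL3 library (0.36 and 0.25). With shMETTL14 3 were higher and 1 lower, against 9.15% and 12%, with a median of 0.18, namely TNFAIP3 (2.56 ± 0.17, edgeR adjusted p = 2.1e-11), BIRC3 (1.47 ± 0.24), ADAM17 (0.65 ± 0.16, named after its value was seen) and, lower, the kinase gene MAP3K5 (-0.96 ± 0.15), and with library size alone 8 were higher and 1 lower, against 24.6% and 5.52%. DESeq2 called 3 and 1, against 4.42% and 7.4%. ADAM17 lost its call without the first shControl (0.61) or first shMETTL14 library (0.53), where fewer of all genes were higher as well. Without either shMETTL3 library more of the list and more of all genes were higher.

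All 8 genes for NF-kappaB subunits and inhibitors were tested. In senescent shControl compared with control cells NFKBIA (1.12 ± 0.30), NFKB2 (0.81 ± 0.24) and NFKB1 (0.69 ± 0.15) were higher, with 0 lower by edgeR, DESeq2 or an unadjusted p below 0.05 and a list median of 0.75, but with library size alone 0 were higher and 2 lower. Over all genes 13.3% were called in each direction, and 5.85% higher and 39% lower with library size alone. The count higher was 1 without the second control or second shControl library, 2 without the first shControl library and 5 without either shMETTL3 library, where from 7.82% to 15.9% of all genes were higher. With shMETTL3 1 was higher, NFKB1 (0.90 ± 0.14), against 12.3% of all genes, and 0 were lower by the same rules, against 11.2%, with a median of -0.21. With library size alone 2 were higher, against 41.2% of all genes. With shMETTL14 all 8 were higher than with shControl, against 9.15% of all genes, with a median of 1.20 against -0.00 over all genes and 0 lower by any of these rules. With DESeq2 5 were higher, against 4.42% of all genes, and with library size alone 8, against 24.6%. The count was 3 without the first shMETTL14 library, 4 without the first and 5 without the second shControl library, and 7 or 8 without any other library, while over all genes the shares were 3.57%, 4.06% and 3.73% without the first 3 of these. The largest were NFKBIA (1.75 ± 0.24), RELB (1.70 ± 0.27) and NFKB1 (1.60 ± 0.14). NFKBIA, the inhibitor that NF-kappaB itself induces, had 43 and 33 counts in control, 54 and 73 in shControl, 70 and 32 in shMETTL3 and 277 and 203 in shMETTL14 libraries. Compared with shMETTL3, shMETTL14 also gave 8 of 8 higher, with a median of 1.35, against 16.5% and a median of 0.01 over all genes, and 7 of 8 with DESeq2, against 9.44%. Fewer of the list were higher without the first shMETTL14 or second shMETTL3 library, where the share of all genes was also lower.

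**Figure D5:**
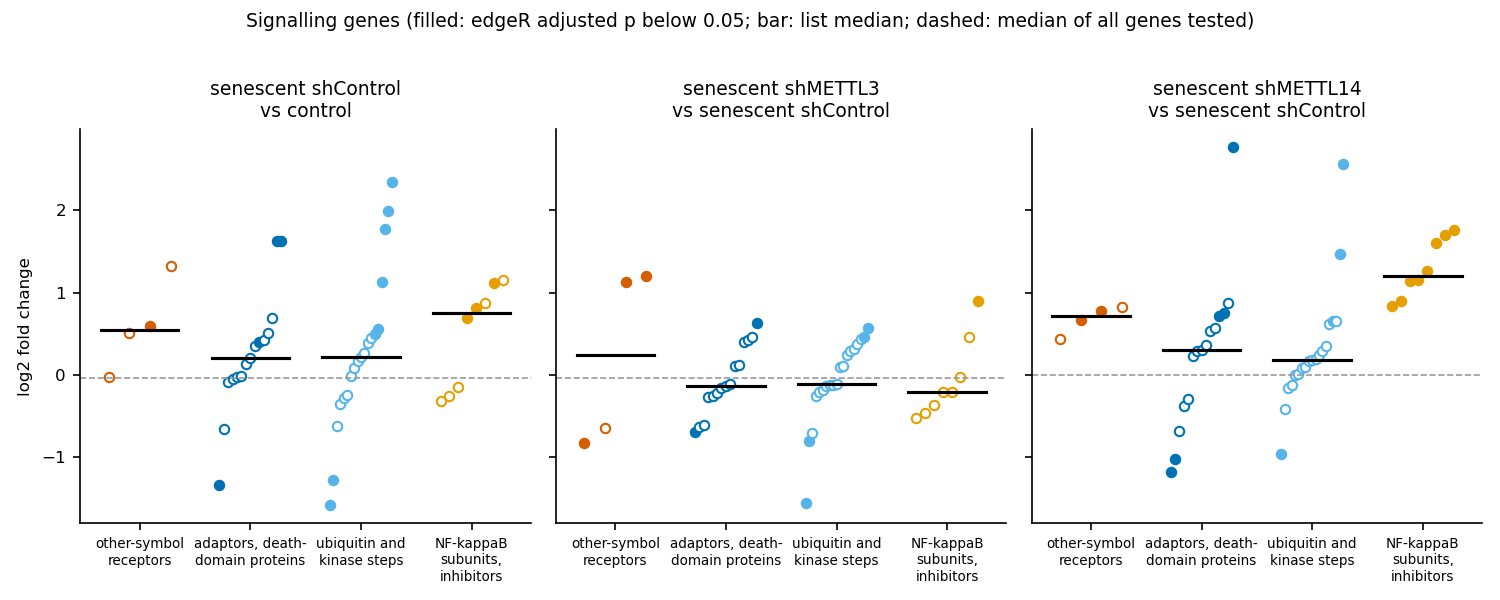
log2 fold change (vertical axis) of the tested genes of 4 lists, receptors under other symbols, adaptors and death-domain proteins, ubiquitin and kinase steps, and NF-kappaB subunits and inhibitors (horizontal axis), in 3 comparisons; each point is a gene, filled where the edgeR adjusted p is below 0.05, bars are list medians and the dashed line is the median of all genes tested. With shMETTL14 all 8 NF-kappaB genes lay above 0, with a median of 1.20.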

How the data were processed

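Nascent RNA of IMR90 cells was measured by fastGRO-seq in 4 groups of 2 libraries. The authors aligned reads to hg19 (STAR in the submitters' processing notes, version not given in the sources used here) and deposited raw counts over whole gene bodies, made with HOMER 4.10. The command names a strand option, but the values behave as counts of both strands. No column or row was left without a sample or gene name. Differential transcription was tested by edgeR 4.0.16 under R 4.3.3 (TMM, filterByExpr with a minimum count of 10, 1 quasi-likelihood fit over 8 libraries). RPKM was computed from the deposited gene lengths and TMM-scaled totals. Neither the Drosophila spike-in, by which the study scaled its reads, nor other assays of the study were used here. TMM assumes that most genes do not change. A change shared by most genes would therefore not be seen, and calls are relative to the other genes. The test was checked on simulated data, where it found a smaller share of the changed genes at low counts than at high counts.

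Named with all counts is each member called in at least 1 of the first 3 comparisons. From the lists of receptors and ligands under other symbols, adaptors, ubiquitin and kinase steps, NF-kappaB genes, cell type markers and senescence markers, the 3 largest called changes per signalling list and comparison are named, except for items that are not reported here. Members and lists were chosen with earlier results of these data known. Alternatives were DESeq2 1.42.0, library size alone, no ribosomal RNA genes, no filter on low counts, only the groups compared, a replicate block, stricter thresholds, members with little overlap and each library left out. Library size without ribosomal RNA and windows at counted starts were added after seeing the data. Motifs were searched in RefSeq windows (GRCh38.p14) and in GRCh37. Intervals cover counting error only. Plots were drawn with matplotlib 3.10.9.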

Additional observations from a re-analysis of the deposited data

How the results depend on the processing

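Over 84 pairs of a tested member and a comparison, 1254 alternative values were computed, of which 1179 kept their side of the threshold, 56 lost a call, 19 gained one and 0 changed the sign of a called value, while 29 changed the sign of a value that passed the threshold in neither case, and 59 pairs kept every call. Counts of called members moved by more than 1.5 times as follows, and the cause was not tested. With library size alone, 4 members were higher and 4 lower in senescence (7 and 2 with TMM), 6 were higher and 1 lower with shMETTL3 (1 and 2), and 3 were higher with shMETTL14 than with shMETTL3 (5). The count higher with shMETTL3 was 0 with DESeq2, with only the groups compared, at an adjusted p below 0.01, when a log2 change of 1 or more was required and with library size without ribosomal RNA, which was added after seeing the data. Over all genes, 7.51% were higher with shMETTL3 at an adjusted p below 0.01 and 4.63% when a log2 change of 1 or more was required. When a log2 change of 1 or more in size was required, 1 member was lower with shMETTL3, against 5.36% of all genes, and 1 was higher with shMETTL14, against 4.02%. Under that rule 2 were higher with shMETTL14 than with shMETTL3, against 8.59%. With 1 library left out, 16 or 17 members were tested in place of 14. Such a fit assumes that the lone library of a group varies like the others. The counts of called members then moved in senescence, with each knockdown and between the knockdowns, as did the shares of all genes called. The move was over 1.5 times for members higher with shMETTL3 and for those higher with shMETTL14 than with shMETTL3. In senescence TNFSF12, outside the 14, was lower in some of these fits. Of the 14 members, 4 were lower with shMETTL3 than in control cells, against 20.1% of all genes. Fewer of the 14 were lower with any 1 library left out, and the share of all genes moved as well. The fewest were lower without the first control or second shMETTL3 library. With the replicate number as a replicate block, 6 members were higher and 2 lower in senescence, against 13.5% and 13% of all genes. The counts were 1 and 2 with shMETTL3, against 12.2% and 11.3%, and 3 and 3 with shMETTL14, against 9.09% and 11.9%. Between the knockdowns they were 5 and 4, against 16.3% and 18.7%. Deviations of libraries with the same number correlated between groups at -0.0597, 0.268, 0.0504, -0.0605, -0.0140 and 0.104, the largest between control and shMETTL3 cells. The labels do not say whether the numbers pair the libraries, and the main fit did not pair them. Depth limits what can be said of members with few counts, which holds for most of the 18 untested members and for the values of TNFSF13B, TNFRSF9 and TNFRSF10A.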
